A study of Mus musculus with 12 samples.

Results

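Mbd6, Helz2, Coq2, Fahd2a, Lrrc57, Mturn, Glyctk and Gzmb are 8 mouse genes whose transcript level differed between astrocyte-enriched cultures carrying the ACREB virus and those carrying a control virus. They were chosen by their measured ACREB-against-control differences in these same libraries, as genes seen to differ with PBS, with VIP or with both. The deposited table holds 55573 genes, of which 16761 had enough counts to be tested, and all 8 genes are among the 16761. Gzmb passed that filter only through its counts in ACREB libraries. In the model fitted here, the 6 genes past an adjusted p of 0.05 with PBS (0.0358% of those tested) were Mbd6, Fahd2a, Lrrc57, Mturn, Helz2 and Coq2. With VIP, where 0.0537% of tested genes passed, they were Helz2, Mbd6, Glyctk, Mturn, Lrrc57, Gzmb and Fahd2a. Nr4a2 and Txndc11, which also passed with VIP, are not among the 8. Virus differences of the 8 genes are therefore descriptions of what chose them, and where an adjusted p of one is printed it says only on which side of the threshold the gene lies.

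The cultures were grown from forebrain of newborn C57BL6/J pups, shaken and replated to enrich astrocytes, and none of the libraries comes from untransduced cells. Cultures received lentivirus made from pCIG3 (pCMV-IRES-GFP, the control) or from pCIG3-ACREB, and were kept for 5 days. PBS or 0.5 µM vasoactive intestinal peptide (VIP) was then applied for 30 min, followed by 90 min of recovery before lysis. Each of the 4 combinations (control virus with PBS, control virus with VIP, ACREB with PBS, ACREB with VIP) has 3 libraries, numbered 1 to 3. Nothing in the labels says whether a number is a separate culture or animal, and the spread behind each p-value is that between libraries, which may be technical. The vector's CMV promoter is active in many cell types, and the labels do not give the share of cells that took up the virus.

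CREB is a transcription factor that is activated by phosphorylation when cyclic AMP rises, and it binds cAMP response elements (CREs) in promoters. VIP raises cyclic AMP through G-protein-coupled receptors, and astrocytes respond to it with changes in glycogen metabolism. ACREB pairs with CREB and keeps it from binding DNA. It is used to lower CREB-driven transcription, which can touch both resting and induced genes.

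Total counts ranged from 16571398 to 20529238 per library. On the leading principal component (38.1% of the variance), library 2 of the control PBS group scored 81.2 and library 2 of the ACREB PBS group 34.6. The other 10 scored 7.02 or less, down to -28.9 in ACREB VIP library 1 and -29.0 in control VIP library 1. Trends on GC content and gene length explained 42.3% and 20.6% of the departures of the control PBS and ACREB PBS libraries 2 from the median library. For the control VIP and ACREB VIP libraries 1 these trends explained 10.7% and 11.4%. Creb1, the gene for CREB, measured 21.2 to 67.2 CPM (read counts scaled to a common, TMM-normalised library size) in the 6 control virus libraries and 59.8 to 117.4 CPM in the 6 ACREB libraries. Counts per gene do not separate a transgene from Creb1, so ACREB expression was not measured. All 8 astrocyte markers were detected, at a summed 4962 to 6256 CPM. Markers of microglia (623 to 1594 CPM), oligodendrocyte lineage (932 to 1598 CPM), fibroblasts and mural cells (1910 to 3076 CPM), ependyma (300.3 to 431.6 CPM), neurons (218 to 426 CPM) and endothelium (21.7 to 57.7 CPM, with Cldn5 at 0) were present too. The cultures therefore held other cells besides astrocytes, and in such bulk samples fewer cells of a type and less RNA per cell cannot be told apart.

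Promoters are shown here because CREB acts through a short DNA element that can be looked for. RefSeq promoter windows (GRCm38.p6, 250 bases before to 50 after each gene's start) matched 8 of the 8 genes. The full CRE, TGACGTCA, reads the same on both strands, and the half-site searched was TGACG on either strand, which each full element also contains. A full CRE was found for Mturn and Fahd2a, 2 of 8 genes (25.0%), against 411 of 11835 tested genes with a window (3.47%). Half-sites were found for 6 of 8 genes (75.0%, against 33.6%), the exceptions being Mbd6 and Glyctk. In the 150 bases upstream of the start, capitals mark full elements or half-sites, and each window is written 5′ to 3′ along the gene. Mturn (chr6:54681474-54681623, plus strand) and Fahd2a (chr2:127444566-127444715, minus strand) hold the full elements, Coq2 (chr5:100674257-100674406, minus strand) and Helz2 (chr2:181242028-181242177, minus strand) hold a half-site near the start, and Mbd6 (chr10:127289019-127289168, minus strand), the gene that was lowest relative to control, holds neither.
Mturn: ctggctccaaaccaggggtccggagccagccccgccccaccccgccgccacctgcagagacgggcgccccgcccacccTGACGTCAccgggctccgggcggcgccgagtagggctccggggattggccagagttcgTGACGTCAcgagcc
Fahd2a: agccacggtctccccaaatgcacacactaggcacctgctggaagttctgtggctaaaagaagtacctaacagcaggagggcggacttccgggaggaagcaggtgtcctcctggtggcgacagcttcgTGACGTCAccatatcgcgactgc
Coq2: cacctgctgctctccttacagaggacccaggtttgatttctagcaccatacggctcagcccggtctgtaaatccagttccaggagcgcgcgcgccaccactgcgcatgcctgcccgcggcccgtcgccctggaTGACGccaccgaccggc
Helz2: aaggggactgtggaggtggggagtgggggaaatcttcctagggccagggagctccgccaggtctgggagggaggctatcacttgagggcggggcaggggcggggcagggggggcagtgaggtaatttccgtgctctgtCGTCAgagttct
Mbd6: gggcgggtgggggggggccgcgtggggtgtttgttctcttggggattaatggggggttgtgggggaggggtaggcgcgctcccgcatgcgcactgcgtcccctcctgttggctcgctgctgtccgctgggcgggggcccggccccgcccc

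Counting the first transcribed base as 0, the full elements of Mturn begin at -72 and -14 and that of Fahd2a at -23. The half-sites begin at -17 in Coq2, at -12 in Helz2, at -62 in the most upstream Lrrc57 window and at 5 in Gzmb. The 2 genes with a full element had opposite virus differences, since Mturn was higher and Fahd2a lower with ACREB. For comparison, the GC box GGGCGG (both strands) was in 5 of 8 genes (62.5%, against 66.6%), the CCAAT box in 3 of 8 (37.5%, against 42.7%) and the E-box CACGTG in 0 of 8 (against 11.1%). A match describes letters in a window of 300 bases and does not show that CREB binds there.

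Mbd6 (ENSMUSG00000025409, GRCm38 chromosome 10, 127281956 to 127289018, minus strand) encodes a methyl-CpG-binding domain protein that associates with the BAP1 deubiquitinase complex PR-DUB. It had the largest relative decrease of the 5 lower genes. With control virus, Mbd6 was at 92.9, 152.4 and 163.8 CPM with PBS and at 128.0, 129.2 and 125.9 CPM with VIP, in the order of libraries 1 to 3 used for every gene. With ACREB it measured 35.1, 28.2 and 40.8 CPM with PBS and 43.6, 28.2 and 36.7 CPM with VIP. The highest ACREB library lay well below the lowest control library in either treatment. ACREB cultures held 25.4% of the control mean with PBS and 28.3% with VIP, or log2 differences of -1.97 (SE 0.22) and -1.82 (SE 0.22). Control PBS library 1 was the low one of its group, so the spread with PBS (SD 38.1 CPM, n = 3) was far larger than with VIP (SD 1.67 CPM). The longest Mbd6 transcript is 63.1% GC, above 98.5% of tested genes, and with GC and length offsets the PBS difference was -1.82.

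Helz2 (ENSMUSG00000027580, chromosome 2, 181227615 to 181242027, minus strand) encodes a helicase that acts as a co-activator of PPAR nuclear receptors and is itself interferon-inducible. Its levels with control virus were 13.1, 16.8 and 15.97 CPM with PBS and 25.1, 22.8 and 19.2 CPM with VIP. With ACREB they were 7.69, 7.68 and 7.03 CPM with PBS and 8.25, 9.05 and 8.79 CPM with VIP. The 4 groups did not overlap at all, in the order ACREB PBS, ACREB VIP, control PBS, control VIP. The virus difference was -1.04 (SE 0.15) with PBS and -1.36 (SE 0.14) with VIP, or 48.7% and 38.9% of the control mean.

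Coq2 (ENSMUSG00000029319, chromosome 5, 100654723 to 100675140, minus strand) encodes the prenyltransferase that joins the side chain to the ring of coenzyme Q, the electron carrier of the respiratory chain. In control libraries it measured 43.5, 50.3 and 39.5 CPM with PBS and 42.9, 37.8 and 39.6 CPM with VIP. ACREB libraries measured 27.5, 23.3 and 24.4 CPM with PBS and 24.3, 24.0 and 25.1 CPM with VIP. The viruses were separated in both treatments, while PBS and VIP libraries of the same virus overlapped. The log2 difference was -0.83 (SE 0.12) with PBS and -0.71 (SE 0.12) with VIP, and Coq2 was the 1 gene of the 6 chosen with PBS that missed the threshold with VIP.

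Fahd2a (ENSMUSG00000027371, chromosome 2, 127436215 to 127444565, minus strand) belongs to the fumarylacetoacetate hydrolase domain family. Control libraries held 15.3, 19.4 and 15.9 CPM with PBS and 16.1, 14.6 and 15.5 CPM with VIP, and ACREB libraries 8.24, 7.92 and 7.67 CPM with PBS and 6.79, 8.13 and 8.85 CPM with VIP. Levels with ACREB were about as far below control in both treatments, at 47.1% and 51.4% of the control mean (log2 -1.09, SE 0.14, and -0.96, SE 0.14).

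Lrrc57 (ENSMUSG00000027286, chromosome 2, 120604238 to 120609520, minus strand) encodes a leucine-rich repeat protein. It measured 34.4, 30.5 and 31.7 CPM with control virus and PBS, and 34.2, 33.9 and 33.0 CPM with VIP. ACREB libraries measured 19.9, 16.6 and 16.2 CPM with PBS and 20.4, 18.1 and 18.2 CPM with VIP. Library spread was small beside the virus difference, which was -0.87 (SE 0.12) with PBS and -0.84 (SE 0.12) with VIP. Lrrc57 shares 138 exon bases (6.20% of its exons) with Haus2, a subunit of the augmin complex of the mitotic spindle, on the opposite strand. Haus2 was also lower with ACREB, by log2 -0.57 (SE 0.15) with PBS and -0.64 (SE 0.15) with VIP, but did not pass edgeR's test (adjusted p = 0.36 and 0.27), and with the counter's strand setting not given the Lrrc57 counts are uncertain to that extent.

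**Figure D1:**
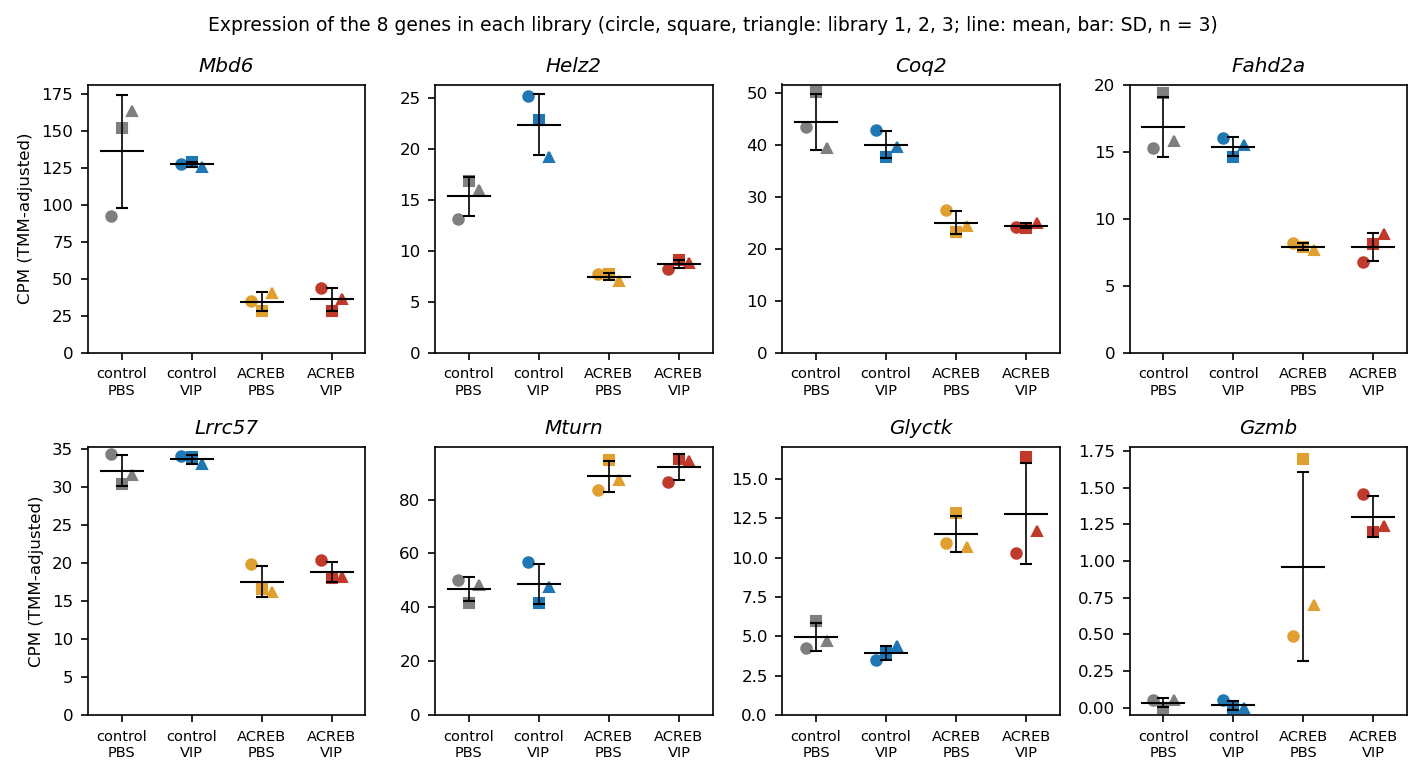
CPM on TMM-adjusted library sizes (vertical axes, 1 panel per gene, linear scales) in each of the 12 libraries, with symbols for library numbers 1 to 3, lines for group means and bars for SD (n = 3). The ACREB libraries lie below all control libraries for Mbd6, Helz2, Coq2, Fahd2a and Lrrc57 and above them for Mturn, Glyctk and Gzmb, and only Helz2 also separates VIP from PBS within each virus.

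Mturn (ENSMUSG00000038065, chromosome 6, 54681624 to 54703851, plus strand) encodes maturin, a protein of neural progenitor differentiation, and was the 1 gene that was higher with ACREB past the threshold with PBS. Control libraries measured 50.2, 41.7 and 48.5 CPM with PBS and 56.7, 41.7 and 47.5 CPM with VIP. ACREB libraries measured 83.6, 94.8 and 87.4 CPM with PBS and 86.6, 95.2 and 94.5 CPM with VIP. The lowest ACREB library exceeded the highest control library by a wide margin, and the ratio of means was 1.89 in each treatment (log2 0.92, SE 0.13, both times). The antisense locus Gm28402 shares 190 exon bases (3.34%) with Mturn and held 1 to 18 counts per library, against 726 to 1826 for Mturn.

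Glyctk (ENSMUSG00000020258, chromosome 9, 106152857 to 106158138, minus strand) encodes glycerate kinase, which phosphorylates glycerate from serine and fructose breakdown. With control virus it measured 4.26, 5.98 and 4.72 CPM with PBS and 3.48, 3.95 and 4.38 CPM with VIP. With ACREB it measured 11.0, 12.8 and 10.7 CPM with PBS and 10.3, 16.4 and 11.7 CPM with VIP. ACREB VIP library 2 was the highest of its group, and all ACREB libraries were above all control libraries. The means were 2.31 times control with PBS and 3.26 times with VIP (log2 1.21, SE 0.20, and 1.70, SE 0.21). Of Glyctk's exon bases, 52.1% lie opposite D030055H07Rik, which held 2 to 14 counts per library, against 68 to 301 for Glyctk.

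Gzmb (ENSMUSG00000015437, chromosome 14, 56258838 to 56262260, minus strand) encodes granzyme B, a serine protease best known from the granules of cytotoxic lymphocytes, and was nearly undetected with control virus. It had 1, 0 and 1 counts in control PBS libraries and 1, 0 and 0 in control VIP libraries. ACREB PBS libraries had 9, 28 and 12 counts and ACREB VIP libraries 26, 22 and 24. These are few counts even with ACREB, at 0.49 to 1.69 CPM with PBS and 1.20 to 1.46 CPM with VIP. The ratio of summed, depth-adjusted counts was 26.2 with PBS (exact 95% interval 6.87 to 222) and 75.9 with VIP (13.2 to 3039.7), where the intervals cover counting error only. The 2 intervals overlap between 13.2 and 222, and a fitted fold change is not given because it depends on the prior count. With 1 library left out, the PBS ratio was 16.4 (without ACREB PBS library 2) to 34.6, and was 18.0 without control PBS library 2. The VIP ratio was 49.9 without control VIP library 2 and at most 78.7. The 1 control VIP count came from library 1, and without it Gzmb was at least 16.9-fold higher with ACREB, taking 3 counts over the control group as the limit.

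Of 9 markers of cytotoxic lymphocytes, Cd2, Cd3e, Cd8a, Gzma, Ncr1 and Prf1 had 0 counts in all 12 libraries, where 3 counts would be 0.0135 CPM, and the list summed to at most 0.402 CPM in control and 0.155 CPM in ACREB libraries. Among 12 other granzyme and granule genes, only Gzmm, Srgn and Serpinb9 had enough counts for the test. The granzyme gene Gzmc had 53 counts over the 12 libraries, too few for the test, and was not compared between viruses. Gzmm averaged 0.97 ± 0.19 CPM with control virus and PBS and 1.35 ± 0.35 CPM with ACREB and PBS (SD, n = 3), and none of the 3 passed in either treatment. Microglia, which can carry granule genes such as Srgn, had 8 of 8 markers detected. Their summed level was 647 to 1227 CPM in control PBS and 833 to 1536 CPM in ACREB PBS libraries, and 623 to 1300 against 796 to 1594 CPM with VIP, ranges that overlap. All 8 microglia markers had a log2 value above 0 with ACREB in both treatments, with medians of 0.38 and 0.45 and 0 of 8 past the threshold. Over all tested genes, 48.8% with PBS and 49.6% with VIP were below 0. Their SEs with PBS ran from 0.28 (Tmem119) to 0.51 (P2ry12). Markers of 1 cell type can rise and fall together, so the 8 are not separate observations. The part of microglia in the Gzmb difference was not tested.

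All 5 lower genes had their 6 ACREB libraries below their 6 control libraries, and all 3 higher genes had them above. Over all tested genes this held for 1.14% below and 0.811% above. Within PBS libraries alone, 4.44% of tested genes had the 3 ACREB libraries below the 3 control libraries and 4.34% above, and within VIP libraries alone 7.06% below and 6.97% above. At an adjusted p of 0.05, 0.0358% of tested genes passed with PBS (0.0298% lower, 0.00597% higher) and 0.0537% with VIP (0.0358% lower, 0.0179% higher). These shares are the background against which the 8 were chosen, and nothing is read from the excess. Just inside the threshold with PBS was Coq2 (log2 -0.83, adjusted p = 0.042) and just outside were Gm37305 (1.00, 0.082) and Rtl6 (-0.82, 0.082), all by edgeR. With VIP, Fahd2a (-0.96, 0.041) was just inside and Nubpl (-1.02, 0.053) just outside. In fits that left out 1 of the 12 libraries, 0 to 2 of the 8 genes passed with PBS and 0 to 8 with VIP, and a fit of the 6 PBS libraries alone passed 0, while the log2 differences of the 7 genes other than Gzmb stayed between -2.19 and -0.66 for the lower and 0.80 and 1.83 for the higher genes over all 20 alternatives.

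The main question for these genes was whether the virus difference was the same with and without VIP. For the 7 genes other than Gzmb, the 95% interval of the difference with VIP minus the difference with PBS included 0. The value was 0.15 for Mbd6 (SE 0.30, 95% interval -0.51 to 0.82), 0.11 for Coq2 (-0.25 to 0.48), 0.13 for Fahd2a (-0.31 to 0.57) and 0.04 for Lrrc57 (-0.32 to 0.39). For Mturn it was 0.00014 (-0.40 to 0.40), an interval that reaches 0.40 either way on the log2 scale. Helz2 had -0.33 (-0.77 to 0.12), a larger decrease with VIP, and Glyctk 0.50 (-0.13 to 1.12), a larger increase with VIP. No gene of the 8 passed edgeR's quasi-likelihood test of this difference (adjusted p = 1.00, Benjamini-Hochberg), nor did any of the 16761 tested (0%). DESeq2 also called 0 genes. Without adjustment, edgeR put 201 genes (1.2%) under a p of 0.05, and none of the 8 was among them. For a gene past the threshold in a single treatment, the choice on the virus difference favours a larger difference in that treatment. Mbd6, Helz2, Fahd2a, Lrrc57 and Mturn were past it in both treatments. For these the choice can favour similar differences, so a value near 0 may be partly built in. The intervals still allow sizeable inequality for Mbd6, Helz2 and Glyctk. The choice can also favour genes with a low estimate of spread, which makes these intervals too narrow. Leaving out the pairing of same-numbered libraries can make them too wide. With the replicate block, 461 genes were under an unadjusted p of 0.05 by edgeR, and with GC and length offsets as well 616. Which of these weighs more was not tested.

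VIP itself was examined as the mean of its effect over both viruses, a contrast balanced over the 2 viruses whose value the choice did not use. Its SE and p-value rest on the same residual spread as the virus differences. Genes chosen by those differences can have a spread estimated too low, so the intervals of the 8 genes may be too narrow. None of the 8 genes passed edgeR's test, against 0.728% of tested genes (0.579% higher, 0.149% lower), and at an unadjusted p below 0.05, which 6.67% of tested genes reached, Helz2 was the 1 gene of the 8. Helz2 came closest, at log2 0.38 (SE 0.10, 95% interval 0.16 to 0.60, edgeR adjusted p = 0.17), with VIP libraries above PBS libraries in both viruses, which held for 1.24% of tested genes (and the reverse for 0.782%). DESeq2 passed Helz2 at 0.40 (adjusted p = 0.025), as did edgeR with GC and length offsets plus the replicate block (0.38, adjusted p = 0.021). The VIP effect was -0.02 for Mbd6 (-0.35 to 0.31), -0.09 for Coq2 (-0.27 to 0.09), -0.07 for Fahd2a (-0.29 to 0.15), 0.09 for Lrrc57 (-0.09 to 0.26), 0.06 for Mturn (-0.14 to 0.25) and -0.09 for Glyctk (-0.40 to 0.22). In the same fit 7 of 27 tested cAMP/CREB targets were higher, among them Nr4a2 (2.92) and Dio2 (2.92). That list was drawn up with earlier results of these data known, so it is not an independent check of the fit.

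**Figure D2:**
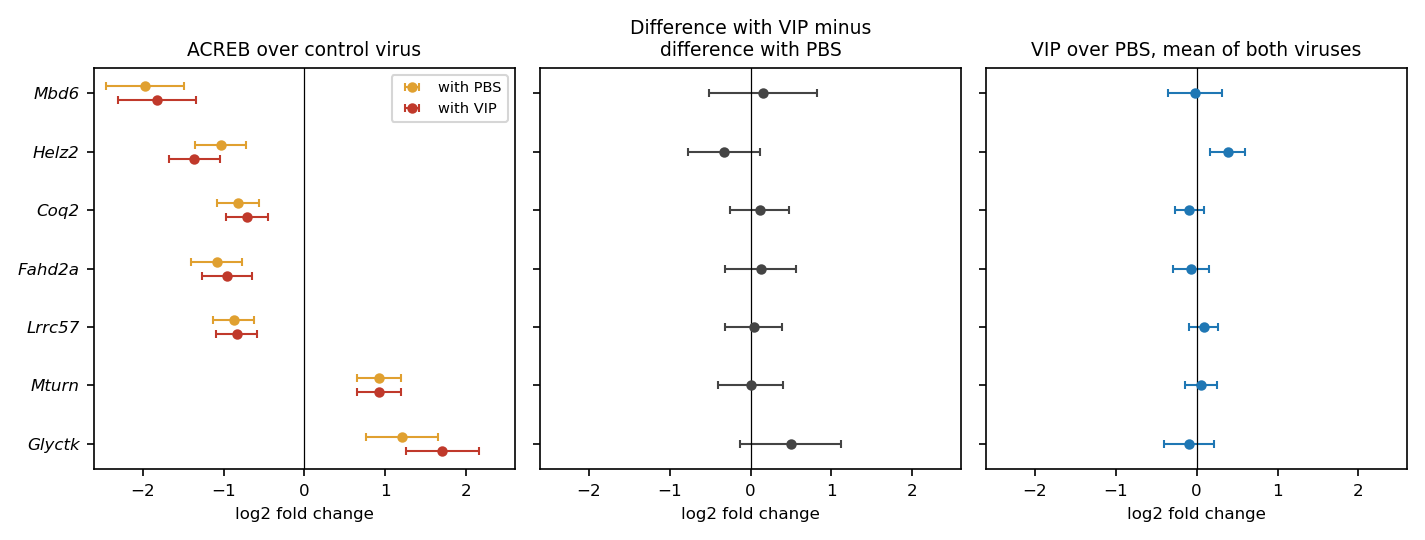
Log2 fold changes with 95% intervals (horizontal axes) for the 7 genes other than Gzmb: ACREB over control virus in each treatment (left), the difference between those 2 values (middle) and VIP over PBS averaged over both viruses (right). The virus differences lie between -1.97 and 1.70 and away from 0, whereas the middle intervals all include 0 and on the right only the interval of Helz2 does not.

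Relatives and partners of the 8 genes were examined from 8 lists, and 0 of their 84 tested entries passed edgeR's test in either virus comparison. At an unadjusted p below 0.05 there were 8 of 84 entries with PBS and 12 of 84 with VIP, larger shares than the 5.3% and 5.69% of all tested genes. Of these entries, 5 with PBS and 10 with VIP were from the interferon list, whose genes can rise and fall together. DESeq2 passed 1 entry with PBS (Irf7) and 0 with VIP. With the replicate block, edgeR passed 0 entries with PBS and 1 with VIP (Coq7), and with GC and length offsets plus the block it passed 7 with PBS and 12 with VIP, all of them interferon genes except Coq7 in both treatments and Coq10b with VIP. The 10 other methyl-CpG-binding domain genes ranged from -0.20 to 0.25 with PBS and from -0.48 to 0.12 with VIP. The 10 other genes of the PR-DUB complex, which removes ubiquitin from histones, among them Bap1 (0.12 and 0.16) and Asxl1 (-0.02 and 0.10), had medians of -0.01 and -0.02. Among the 12 other coenzyme Q genes the medians were -0.08 and -0.10. Coq7, a hydroxylase of the same pathway, had 26.4 ± 8.33 CPM with control virus and PBS and 40.7 ± 5.99 CPM with ACREB and PBS (SD, n = 3), a log2 difference of 0.63 with PBS, and of 0.69 with VIP (edgeR adjusted p = 0.62 and 0.47). With the replicate block the adjusted p for Coq7 was 0.064 with PBS and 0.046 with VIP, and with GC and length offsets plus the block 0.014 and 0.0052. Coq10b, a coenzyme Q chaperone gene, had 0.03 with PBS and -0.34 with VIP, and in the last of these fits its virus difference with VIP passed (-0.27, adjusted p = 0.042). The FAH domain genes Fah (-0.25) and Fahd1 (0.11) had differences of either sign with PBS. The 10 tested genes of glycerate, glyoxylate and serine metabolism ranged from -0.29 to 0.19 with PBS and from -0.16 to 0.20 with VIP, against 1.21 and 1.70 for Glyctk. Because the 8 genes were chosen by their virus differences, their distance from these lists is not a test.

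Most interferon response genes, the list Helz2 belongs to, were below 0 in both treatments. Of 23 other interferon genes 22 had a log2 value below 0 with PBS and 23 with VIP, against 48.8% and 49.6% of all tested genes. Interferon genes can rise and fall together, so the 23 are not separate observations. The list was built around Helz2, which was chosen by its virus difference. The list medians were -0.26 and -0.43, against 0.01 and 0.00 over all tested genes, and 0 of 23 passed in either treatment. In the fit with GC and length offsets and the replicate block, 6 of 23 passed with PBS and 10 of 23 with VIP, among them Irf7, Ifit1, Isg15, Bst2, Oasl2 and Usp18 in both. That fit called more genes in general, 111 higher and 214 lower with PBS and 208 higher and 367 lower with VIP. Irf7, a master regulator of interferon induction, had -0.94 with PBS (from 13.4 ± 3.52 to 6.96 ± 1.26 CPM, SD, n = 3) and -0.81 with VIP (edgeR adjusted p = 0.27 and 0.40). Of 14 PPAR partners, including Ppara (0.32 with PBS) and Pparg (0.55 with PBS), none passed and the medians were 0.20 and 0.06. Rxrg, a retinoid X receptor gene with 105 counts over all 12 libraries, had -0.53 (SE 0.58) and -1.36 (SE 0.62). The part of the interferon genes in the Helz2 difference was not tested.

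**Figure D3:**
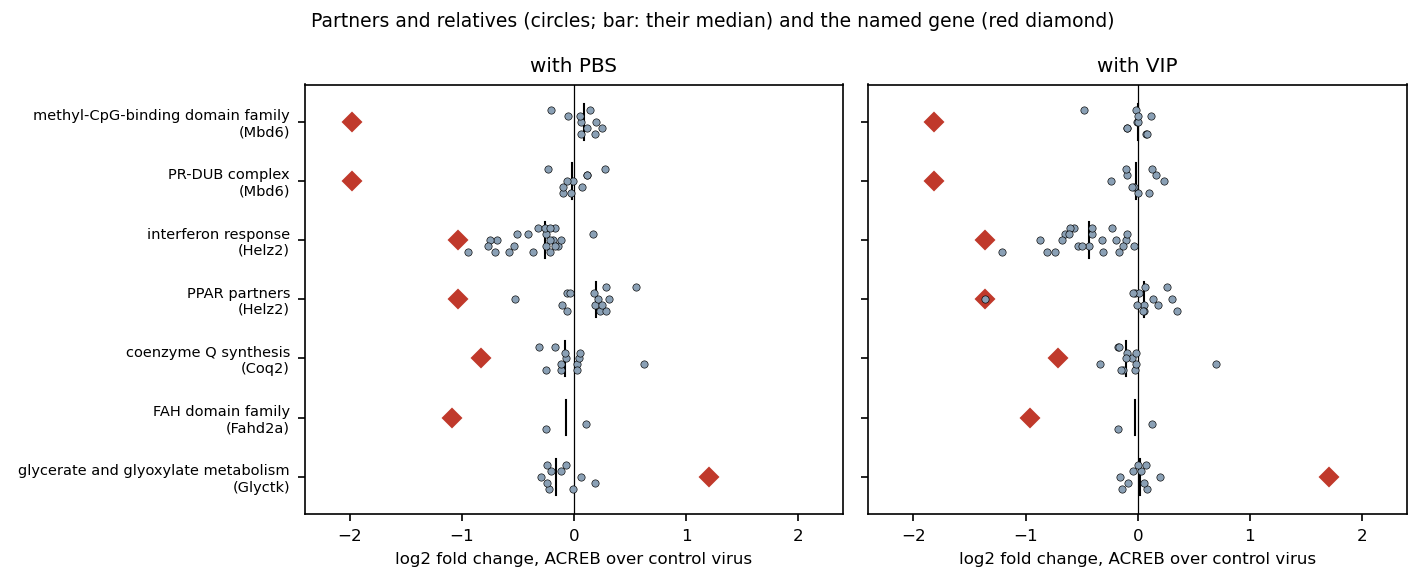
Log2 fold change of ACREB over control virus (horizontal axes) with PBS (left) and VIP (right) for the other tested genes of 7 lists (circles), with a bar at the list median, and for the gene the list was built around (diamond). The diamonds lie outside the circles of their lists apart from Helz2 with VIP, on which the low-count PPAR partner Rxrg falls (-1.36), and the interferon circles lie mostly left of 0. The diamond genes were chosen by their virus differences in these libraries, so their distance from the circles is not a test.

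The nearest tested gene on each side of the 8 genes was compared, with untested genes in between passed over. Gaps ran from 6 bases (Dctn2 beside Mbd6) to 358545 bases (Sdr39u1 beside Gzmb), so the stretch around a gene was not always covered. None of the 16 neighbours passed in either treatment, and their medians were -0.06 with PBS and 0.00 with VIP. The highest values were 0.76 (SE 0.49) for Rnf17 beside Gzmb with PBS and 0.62 (SE 0.84) for Gm4189 beside Mbd6 with VIP. These 2 genes had means of only 0.46 and 0.38 CPM. Dctn2, a dynactin subunit gene that ends 6 bases from the end of Mbd6 on the other strand, had -0.18 and 0.02. Hpse, the heparanase gene 4344 bases from Coq2, had a mean of only 0.76 CPM. Its values were -0.78 (SE 0.44) and -0.59 (SE 0.43), with edgeR adjusted p = 0.96 and 1.00. The neighbours of Helz2, Fahd2a and Glyctk lay between -0.17 and 0.13. Among overlapping genes with enough counts, Haus2 was described with Lrrc57, and Gm20492, which overlaps no exon of Mbd6 and had 5 to 21 counts per library, had 0.52 (SE 0.50) and -0.01 (SE 0.48).

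**Figure D4:**
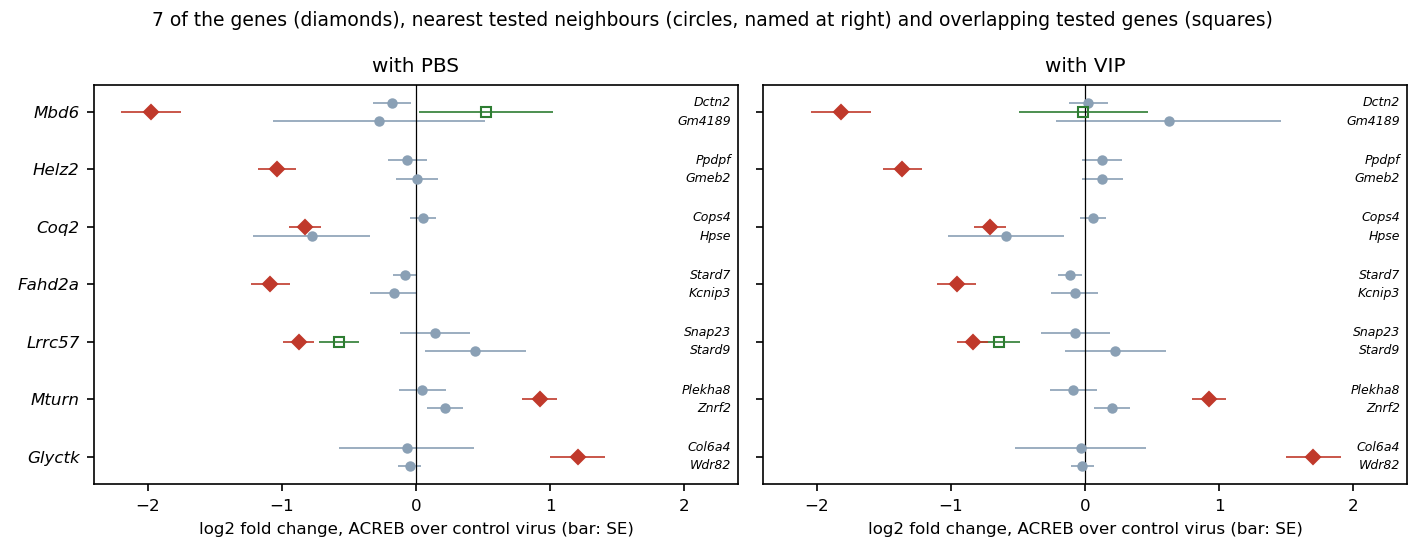
Log2 fold change of ACREB over control virus with its SE (horizontal axes) for 7 of the genes (diamonds), their nearest tested neighbours (circles, named at the right edge) and tested genes that overlap them (squares). Hpse beside Coq2 (-0.78 and -0.59, mean level 0.76 CPM) is the circle farthest left, and the square of Haus2 lies left of 0 beside Lrrc57 (-0.57 and -0.64).

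Levels between genes were compared per kilobase of exon in control PBS cultures. Mbd6 was the highest at 30.6 ± 8.55 CPM per kb (SD, n = 3), above 90.1% of tested genes, followed by Coq2 at 16.9 ± 2.08, Lrrc57 at 14.5 ± 0.902, Fahd2a at 11.5 ± 1.52 and Mturn at 8.22 ± 0.784. Coq2 and Lrrc57 differed by less than the sum of their SDs. Helz2 (1.33 ± 0.168) and Glyctk (1.18 ± 0.210) did not differ beyond their spread, and Gzmb was at 0.0244 ± 0.0211.

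Genes with the most similar pattern over the 12 libraries, after the mean of each replicate number was removed, were sought for each of the 8 by Pearson correlation. Libraries of a group share the virus and treatment, so these coefficients describe the virus difference above all. Mbd6 was most like Nup214 (0.98), a nuclear pore gene, and Gpr89 (0.97). Helz2 was most like Rrp1b (0.98) and Sod3 (0.96), the extracellular superoxide dismutase gene, and Rrp1b had 18.5, 23.7, 12.6 and 14.9 CPM in control PBS, control VIP, ACREB PBS and ACREB VIP. Coq2 was most like Scara3 (0.99) and Zdhhc3 (0.99), Fahd2a like Wdr61 (0.99) and Ncapd2 (0.98), and Lrrc57 like B2m (0.98), the light chain of MHC class I, and Pdha1 (0.98), a pyruvate dehydrogenase subunit. Among the genes higher with ACREB, Mturn was most like the neuropeptide gene Npy (0.99) and the BMP antagonist gene Sostdc1 (0.98). Npy averaged 1.67 CPM in control PBS and 4.65 CPM in ACREB PBS libraries. Glyctk was most like Mmab (0.99), a cobalamin adenosyltransferase gene with group means of 25.0 CPM in control PBS and 41.2 CPM in ACREB PBS, and Rhbdd1 (0.98), while Gzmb was most like Dync1h1 (0.96) and Wfdc1 (0.95). None of these 16 genes passed the adjusted threshold in either virus comparison.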

How the data were processed

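Polyadenylated RNA of 12 libraries was sequenced with strand-specific kits. The values the authors deposited are unnormalized read counts for each Ensembl gene. HTSeq 0.11.2, STAR 2.7.1a, Trimmomatic 0.39, edgeR and R 3.6.1 are named, with GRCm38 (mm10), per the submitters' processing notes, and the counter's strand setting is not given in the sources used here. Symbols, positions, exon lengths and transcript GC come from GENCODE M21 (GRCm38), which matched 55480 of 55573 identifiers.

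Counts were fitted in R 4.3.3 with edgeR 4.0.16 (filterByExpr, TMM, quasi-likelihood, 4 group means over 12 libraries, residual degrees of freedom 8), and p-values were Benjamini-Hochberg adjusted over 16761 genes at 0.05. DESeq2 1.42.0 was an alternative. CPM uses TMM-adjusted library sizes. SE is the absolute log2 fold change divided by the square root of F, and 95% intervals use it with the t distribution. The fit was run on 1 set of simulated counts, with 100 genes changed by log2 1 and 100 by log2 2 in ACREB PBS. It recovered 86% and 99% of these, with 11 false calls for that comparison and 5 for the difference between treatments. The simulated libraries were independent and lacked the GC and length trends and the shared deviations of same-numbered libraries, so real performance may differ. Log2 CPM for correlations used a pseudocount of 2. Libraries of 1 group differed by far more than sampling noise (chi-square per degree of freedom 13.2 to 98.1).

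The 8 genes and all lists were chosen with earlier results of these data known. Named besides them were up to 4 list genes past the threshold, nearest tested and overlapping genes, the 2 genes most alike per gene (mean CPM at least 2, no predicted symbols), and Creb1. Other list genes were chosen after their values were seen. Same-numbered libraries deviated together in 18 of 18 pairs (correlations 0.132 to 0.679). The main fit has no term for this, so its SEs, intervals and p-values do not use the pairing. Only in alternative fits did the replicate number enter as a block. Over all tested genes the block called 14 higher and 23 lower with PBS, and 25 higher and 36 lower with VIP. Without it, the main fit called 1 higher and 5 lower with PBS, and 3 higher and 6 lower with VIP. Other alternatives were DESeq2 size factors, no count filter, GC and length offsets, the comparison's 6 libraries alone and each library left out. Leaving out both PBS libraries numbered 2 was added after seeing the data.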

Additional observations from a re-analysis of the deposited data

How the results depend on the processing

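The number of the 8 genes past the threshold was 6 with PBS and 7 with VIP. It was 7 and 8 with the replicate block, which added Glyctk with PBS (edgeR adjusted p = 0.019) and Coq2 with VIP (0.027), changed no other call among the 8 and left 0 for the VIP effect and 0 for the difference between treatments. It was 8 and 8 with DESeq2 and with GC and length offsets plus the block, 7 and 8 with those offsets alone, 8 and 7 without a count filter, and 6 and 7 with DESeq2 size factors. With only the 6 libraries of the comparison it was 0 with PBS and 6 with VIP, and without both PBS libraries 2 it was 0 with PBS and 8 with VIP. With 1 library left out it was 0 to 2 with PBS (2 without control PBS library 2 or ACREB VIP library 1, 1 without control PBS library 1 or ACREB VIP library 2) and 0 to 8 with VIP. With VIP it was 0 when the omitted library was number 1 or 2 of control VIP or any of ACREB VIP, 1 when it was number 3 of control VIP, and 3 when it was number 3 of control PBS or ACREB PBS. No virus difference changed sign in these fits, but the choice of genes favours that. For the VIP effect, 1 of 8 passed with DESeq2 and 1 with GC and length offsets plus the replicate block, which was Helz2 both times.

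Signs turned only for values that never passed, and apart from Gzmb these were near 0. For the difference between treatments, Mturn was -0.012 with DESeq2 size factors, -0.011 with DESeq2, -0.00055 without a count filter and -0.098 to 0.13 with 1 library left out. Lrrc57 was -0.019 to 0.14 and Mbd6 -0.00097 to 0.37 with 1 library left out. With the block added to GC and length offsets Mbd6 was -0.0087, and it was -0.067 without both PBS libraries 2, where Coq2 was -0.038. For the VIP effect, GC and length offsets gave 0.072 for Mbd6, 0.0012 for Fahd2a and -0.0084 for Lrrc57, and with the block 0.079, 0.0025 and -0.0055. With 1 library left out, Mbd6 was -0.12 to 0.059, Mturn -0.0072 to 0.10 and Gzmb -1.10 to 0.14, and without both PBS libraries 2 Glyctk was 0.016. The cause of these shifts was not tested. Depth limits Gzmb most, with 0 or 1 counts in each control library.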
